A study of Mus musculus with 20 samples.

Results

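The colony-stimulating factor (CSF) receptors and ligands described here are 7 genes, Csf1r, Csf1, Il34, Csf2ra, Csf2rb, Csf2rb2 and Csf3r, of 24421 genes counted. They were chosen by symbol, and all 7 were among the 13960 genes that passed the filter on low counts. RNA sequencing covered 20 macrophage libraries of C57BL/6JRj mice, 4 from each of 5 populations. These are peritoneal macrophages, choroid plexus macrophages, dura macrophages with high MHC class II, dura macrophages with low MHC class II, and microglia from the brain. The dura lines the inside of the skull, and cerebrospinal fluid is made in the choroid plexus. Titles of the MHC II-low dura libraries read "int", whereas the cell type label reads "lo". The labels give no genotype, treatment, age or sex, and do not say how cells were isolated or whether replicates are separate animals, so the p-values cover only sample-to-sample spread here, possibly technical.

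CSF1R is a receptor tyrosine kinase on which macrophages, microglia included, depend for survival and proliferation. Its ligands are CSF1 and IL-34, and in the brain neurons are a known source of IL-34. The GM-CSF receptor pairs the ligand-binding alpha chain CSF2RA with the beta common chain encoded by Csf2rb, which also serves the IL-3 and IL-5 receptors. Mice carry a further beta chain gene, Csf2rb2, whose product serves IL-3 only. CSF3R binds G-CSF and is best known for its role in neutrophil production. GM-CSF and G-CSF receptors signal through JAK kinases and STAT factors.

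Gene counts came to 13383274–32611875 per library, with the choroid plexus and microglia libraries at the low end. Levels are counts per 1000000 (CPM) after TMM scaling, values after ± are SD with n = 4 unless they follow a log2 fold change, where they are approximate standard errors, and genes are called where the edgeR adjusted p is below 0.05 and the difference reaches 2-fold. Defining markers fitted the labels: 8 microglia markers summed to 30669–40919 CPM in microglia and no more than 9637 CPM in others, and 8 markers of large peritoneal macrophages to 17856–21996 CPM in the peritoneal libraries and no more than 151 CPM in others. The 8 border macrophage markers summed to 1145–2431 CPM in peritoneal and 3370–3832 CPM in choroid plexus libraries, and to 18.6–27.1 CPM in microglia. MHC II-high dura libraries had 7666–9543 CPM of them, and those with low MHC II 12637–13730 CPM. The microglia libraries are numbered 1, 3, 4 and 5, and their values are listed below in that order, so replicate 3 comes second. Microglia replicate 3 stood apart, with 21183 CPM of 11 choroid plexus epithelium markers against 69.9–733 CPM in the other microglia libraries, and with 127 CPM of fibroblast markers. Calls of the 7 genes against microglia are therefore also given without it, and those of other named genes where leaving it out changed them. In bulk samples, fewer cells of a type and less RNA per cell cannot be told apart.

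Csf1 (chr3:107741048-107760469, mm10, minus strand), the CSF1R ligand, was highest in microglia. It reached 24.5, 17.45, 10.8 and 17.6 CPM in peritoneal libraries and 19.5, 21.6, 27.3 and 27.4 CPM in choroid plexus libraries. Csf1 in MHC II-high dura libraries was at 23.5, 13.02, 18.6 and 21.6 CPM, and MHC II-low dura libraries 29.4, 17.4, 17.7 and 13.3 CPM. Microglia libraries had 160.1, 152, 130.2 and 213 CPM. All 4 microglia libraries lay above all 16 others, and the other populations overlapped each other. Relative to microglia, the log2 fold change of Csf1 was −3.22 ± 0.27 in peritoneal macrophages (edgeR adjusted p = 3.57e-09), −2.77 ± 0.27 in choroid plexus (8.35e-08), −3.09 ± 0.27 in MHC II-high dura (1.41e-08) and −3.07 ± 0.27 in MHC II-low dura (1.54e-08). Without microglia replicate 3 these log2 fold changes were −3.29, −2.87, −3.19 and −3.17.

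Il34 (chr8:110741829-110805924, minus strand), the other CSF1R ligand, was low everywhere and highest in the choroid plexus. Peritoneal libraries had 0 counts. Choroid plexus libraries had 48, 36, 75 and 164 counts, or 3.55, 2.37, 5.08 and 10.4 CPM. MHC II-high dura libraries had 0.359, 1.29, 1.13 and 0.354 CPM, MHC II-low dura libraries 0.303, 0.675, 0.452 and 1.02 CPM, and microglia libraries 1.38, 1.79, 1.10 and 0.264 CPM. Every choroid plexus library lay above every library of the other populations, whose ranges overlapped each other apart from the peritoneal zeros. The choroid plexus level was called higher than in MHC II-high dura (log2 fold change 2.77 ± 0.69, edgeR adjusted p = 0.0075), MHC II-low dura (3.11 ± 0.70, 0.00292) and microglia (2.23 ± 0.67, 0.0128). Without choroid plexus replicate 4 the log2 fold changes were 2.23 (adjusted p = 0.0399), 2.57 (0.018) and 1.69 (0.0771), so the call against microglia was lost. Without microglia replicate 3 the choroid plexus difference from microglia was 2.47 (edgeR adjusted p = 0.0128), and Il34 in peritoneal macrophages against microglia remained called (edgeR adjusted p = 2.34e-05). Set against 3 counts summed over the peritoneal libraries, Il34 was at least 198-fold lower there than in choroid plexus, at least 26.8-fold lower than in MHC II-high dura, at least 22.6-fold lower than in MHC II-low dura and at least 41.5-fold lower than in microglia.

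Fibroblast markers moved with Il34 within the choroid plexus. The 8 markers summed to 377, 319.9, 456 and 1089 CPM in choroid plexus replicates 1 to 4, the same order of libraries as for Il34, with Dpt at 0. The fibroblast sum was 0–0.898 CPM in peritoneal libraries, where Dcn, Lum, Pdgfra and Dpt were at 0, 166–334 CPM in dura with high MHC II, 153–208 CPM in dura with low MHC II and 8.59–127 CPM in microglia. Choroid plexus epithelium markers summed to 4118–7760 CPM in choroid plexus libraries. The part of these cells in the Il34 level was not tested.

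**Figure D1:**
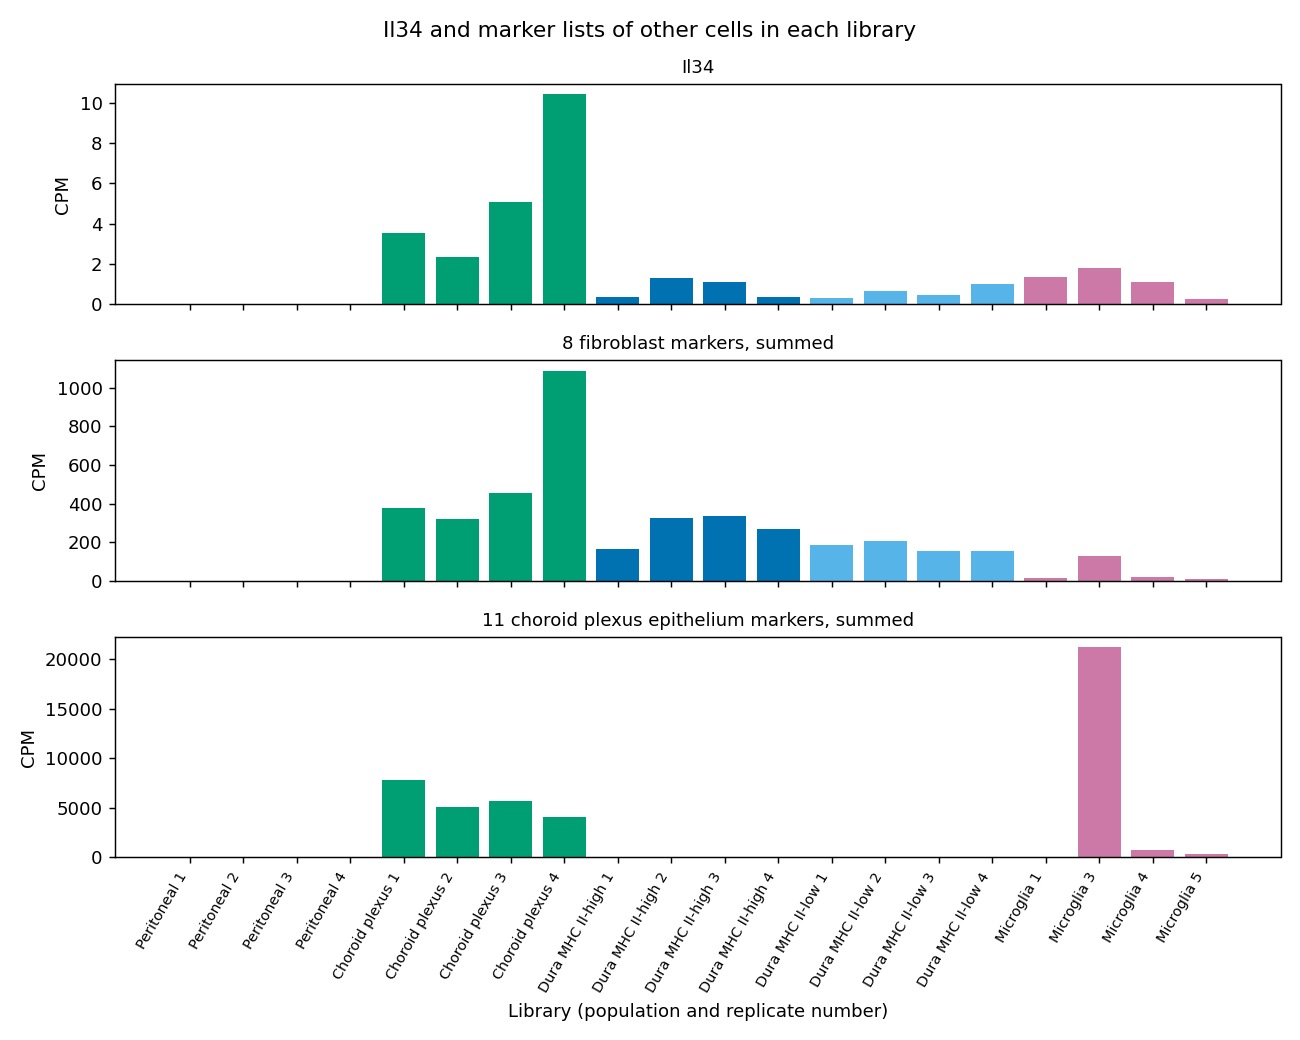
Il34, 8 summed fibroblast markers and 11 summed choroid plexus epithelium markers in CPM (y axes), 1 bar for each of 20 libraries (x axis). Choroid plexus replicate 4 has the most Il34 (10.4 CPM) and the most fibroblast markers (1089 CPM), and microglia replicate 3 has 21183 CPM of epithelium markers.

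The ligands of the other CSF receptors were near or at 0 and were not tested. Csf2, encoding GM-CSF, had 20 counts in all, in 5 libraries, and at most 0.396 CPM. Csf3, encoding G-CSF, had 43 counts in 5 libraries, 30 of them in MHC II-low dura replicate 3. Il3 and Il5, whose products use the beta common chain, had 0 counts in every library, where 3 counts correspond to 0.0964–0.222 CPM.

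Csf1r (chr18:61100598-61132149, plus strand) had the highest level of the 7 genes in every population. Peritoneal libraries had 1972, 2459.9, 1357 and 2821 CPM, and choroid plexus libraries 10625, 10126, 9832 and 8943 CPM. In the dura, MHC II-high libraries had 6715, 6769, 6374 and 6096 CPM, MHC II-low dura libraries 8173, 9027, 8203 and 7769.7 CPM, and microglia libraries 15945, 10612, 12757 and 14089 CPM. The means ran from 2152 ± 634 CPM in peritoneal macrophages over MHC II-high dura, MHC II-low dura and choroid plexus to 13351 ± 2246 CPM in microglia. Choroid plexus overlapped both neighbours in this order, and the peritoneal libraries lay below all others. Csf1r fell in peritoneal macrophages relative to choroid plexus (log2 fold change −2.20 ± 0.17, edgeR adjusted p = 7.71e-10), MHC II-high dura (−1.59 ± 0.17, 8.65e-08), MHC II-low dura (−1.95 ± 0.17, 4.31e-09) and microglia (−2.63 ± 0.17, 3.49e-11).

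Among brain populations, Csf1r was called in MHC II-high dura against microglia only, at −1.04 ± 0.16 (edgeR adjusted p = 2.07e-05). That value was at the 2-fold border, with −0.99989 without microglia replicate 1 and −1.20 without microglia replicate 3. Without microglia replicate 3 the peritoneal difference from microglia was −2.76. In the other brain populations Csf1r was −0.69 ± 0.16 in MHC II-low dura (0.00154) and −0.43 ± 0.16 in choroid plexus (0.0368) against microglia, short of 2-fold. Exons of Hmgxb3 on the opposite strand cover 15.1% of the Csf1r exon length, and since the strand setting of the counting is not known, reads of the pair cannot be told apart there. A list of 10 dissociation stress genes moved with the peritoneal group, at 736–930 CPM in peritoneal libraries and 23454–55773 CPM in all others, and its part in the Csf1r difference was not tested.

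Csf2ra (chr19:61223957-61228429, minus strand), the GM-CSF receptor alpha chain, was highest on average in peritoneal macrophages and lowest in microglia. It had 277, 300.1, 245 and 369 CPM in peritoneal libraries and 212, 251, 267 and 243 CPM in choroid plexus libraries. MHC II-high dura libraries had 265, 232, 239.95 and 246 CPM of Csf2ra, MHC II-low dura libraries 156, 188, 156 and 155 CPM, and microglia libraries 83.7, 66.2, 75.6 and 85.0 CPM. The microglia libraries lay below all others and the MHC II-low dura libraries below the remaining groups, while peritoneal, choroid plexus and MHC II-high dura libraries overlapped. Csf2ra rose relative to microglia in peritoneal macrophages (log2 fold change 1.94 ± 0.12, edgeR adjusted p = 1.46e-11), choroid plexus (1.65 ± 0.12, 6.73e-10), MHC II-high dura (1.66 ± 0.12, 3.73e-10) and MHC II-low dura (1.08 ± 0.12, 1.95e-07). Without microglia replicate 3 these were 1.84, 1.51, 1.53 and 0.94, the last short of 2-fold. In MHC II-high against MHC II-low dura the Csf2ra value was 0.59 ± 0.12 (edgeR adjusted p = 0.00212), also short of 2-fold. Monocyte markers, 8 genes, summed to 1070–1266 CPM in MHC II-high dura and 94.2–170 CPM in MHC II-low dura, but nearly all of that sum was Ccr2, at 1132 ± 87.8 CPM and 106 ± 19.6 CPM. Of the 8 markers, 1 rose and 2 fell in MHC II-high dura, with a median log2 fold change of −1.66 against 0.02 over all genes tested, of which 3.88% were called. Their part in the Csf2ra difference was not tested.

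Csf2rb and Csf2rb2 lie 20030 bases apart on opposite strands (chr15:78325752-78353847, plus, and chr15:78282507-78305721, minus). Their coding sequences are 95.2% identical over 2628 aligned bases, with an unbroken identical run of 242 bases. Of the 50-base windows of the Csf2rb transcript, 18.9% are also found in Csf2rb2, so the values of both genes are uncertain where the counting could split reads between them. The median 60-base coding stretch has 2 differences. The stretch with the most, in exon 4, is shown, but reads can tell the genes apart elsewhere too. The capitals mark the 13 differing bases, at chr15:78338893-78338952 and chr15:78294379-78294438, in the GENCODE M21 transcripts on mm10.
Csf2rb: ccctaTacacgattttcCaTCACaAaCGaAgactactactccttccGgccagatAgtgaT
Csf2rb2: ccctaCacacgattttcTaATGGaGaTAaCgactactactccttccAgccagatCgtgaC

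Csf2rb, the beta common chain, had 144, 142, 157 and 219 CPM in peritoneal libraries and 124, 126, 116 and 114 CPM in choroid plexus libraries. It had 115, 125, 114 and 121 CPM in MHC II-high dura libraries, 126, 116, 126 and 132 CPM in MHC II-low dura libraries and 107, 68.3, 93.9 and 108 CPM in microglia libraries. Peritoneal libraries lay above and microglia libraries below all others, while choroid plexus and dura libraries overlapped. No difference of Csf2rb reached 2-fold, the largest being 0.81 ± 0.13 in peritoneal macrophages against microglia (edgeR adjusted p = 2.11e-05, 0.65 without microglia replicate 3).

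Csf2rb2, the beta chain of the mouse IL-3 receptor, was lowest in peritoneal macrophages. It had 22.8, 19.5, 21.6 and 22.8 CPM in peritoneal libraries and 37.2, 34.3, 37.7 and 28.1 CPM in choroid plexus libraries. MHC II-high dura libraries had 36.6, 36.9, 36.6 and 33.0 CPM of Csf2rb2, MHC II-low dura libraries 38.2, 42.3, 36.1 and 38.0 CPM, and microglia libraries 45.6, 31.2, 37.9 and 47.6 CPM. The peritoneal libraries lay below all others, which overlapped. The peritoneal difference from microglia was −0.90 ± 0.12 on the log2 scale (edgeR adjusted p = 1.81e-06), short of 2-fold, and passed it without microglia replicate 3, at −1.04.

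The share of Csf2rb2 in the counts of the pair does not depend on scaling between libraries. It was 13.7%, 12.04%, 12.1% and 9.43% in peritoneal libraries and 23.0%, 21.4%, 24.5% and 19.7% in choroid plexus libraries. The share in MHC II-high dura libraries was 24.2%, 22.8%, 24.2% and 21.4%, MHC II-low dura libraries 23.3%, 26.8%, 22.3% and 22.4%, and microglia libraries 29.9%, 31.4%, 28.8% and 30.6%. Peritoneal shares lay below and microglia shares above all others. Among 10 pairs of populations compared, the 7 that involve peritoneal macrophages or microglia had p = 0.0286 in a two-sided exact permutation test, the smallest that 4 against 4 allows, and 0.0408 after Benjamini-Hochberg adjustment. With medians in place of means the exact permutation adjusted p of all 7 was 0.0816. Swapping the bordering libraries of fully separated populations leaves both medians unchanged, so medians of 4 against 4 cannot reach p below 0.05. With means, the exact permutation adjusted p of MHC II-low dura against microglia was also 0.0816 when any 1 microglia library was left out. The peritoneal share was 18.4 percentage points below that of microglia, on means of 11.8% ± 1.76 and 30.2% ± 1.10. The dura and choroid plexus shares did not separate, with exact permutation adjusted p of 0.686 between the dura populations, 0.635 between choroid plexus and MHC II-high dura and 0.464 between choroid plexus and MHC II-low dura.

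Csf3r (chr4:126024550-126044440, plus strand), the G-CSF receptor, was highest in microglia. It had 153, 284, 148 and 239 CPM in peritoneal libraries and 128, 131, 131 and 108 CPM in choroid plexus libraries. MHC II-high dura libraries had 122, 107, 97.4 and 142 CPM of Csf3r, MHC II-low dura libraries 121, 118, 114 and 123 CPM, and microglia libraries 649.5, 509.98, 532 and 626 CPM. Microglia libraries lay above all others and peritoneal libraries above the remaining groups, which overlapped. Csf3r fell relative to microglia in peritoneal macrophages (log2 fold change −1.49 ± 0.17, edgeR adjusted p = 1.62e-07), choroid plexus (−2.22 ± 0.17, 2.3e-09), MHC II-high dura (−2.31 ± 0.17, 8.82e-10) and MHC II-low dura (−2.28 ± 0.17, 1.14e-09). Without microglia replicate 3 these were −1.58, −2.35, −2.43 and −2.40. Neutrophil markers, 9 genes of which Mpo was at 0 in all libraries, summed to 0.782–3.41 CPM over all libraries and to 1.23–2.25 CPM in microglia. Only 2 of them passed the filter on low counts, and the part of such cells in the Csf3r level was not tested.

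**Figure D2:**
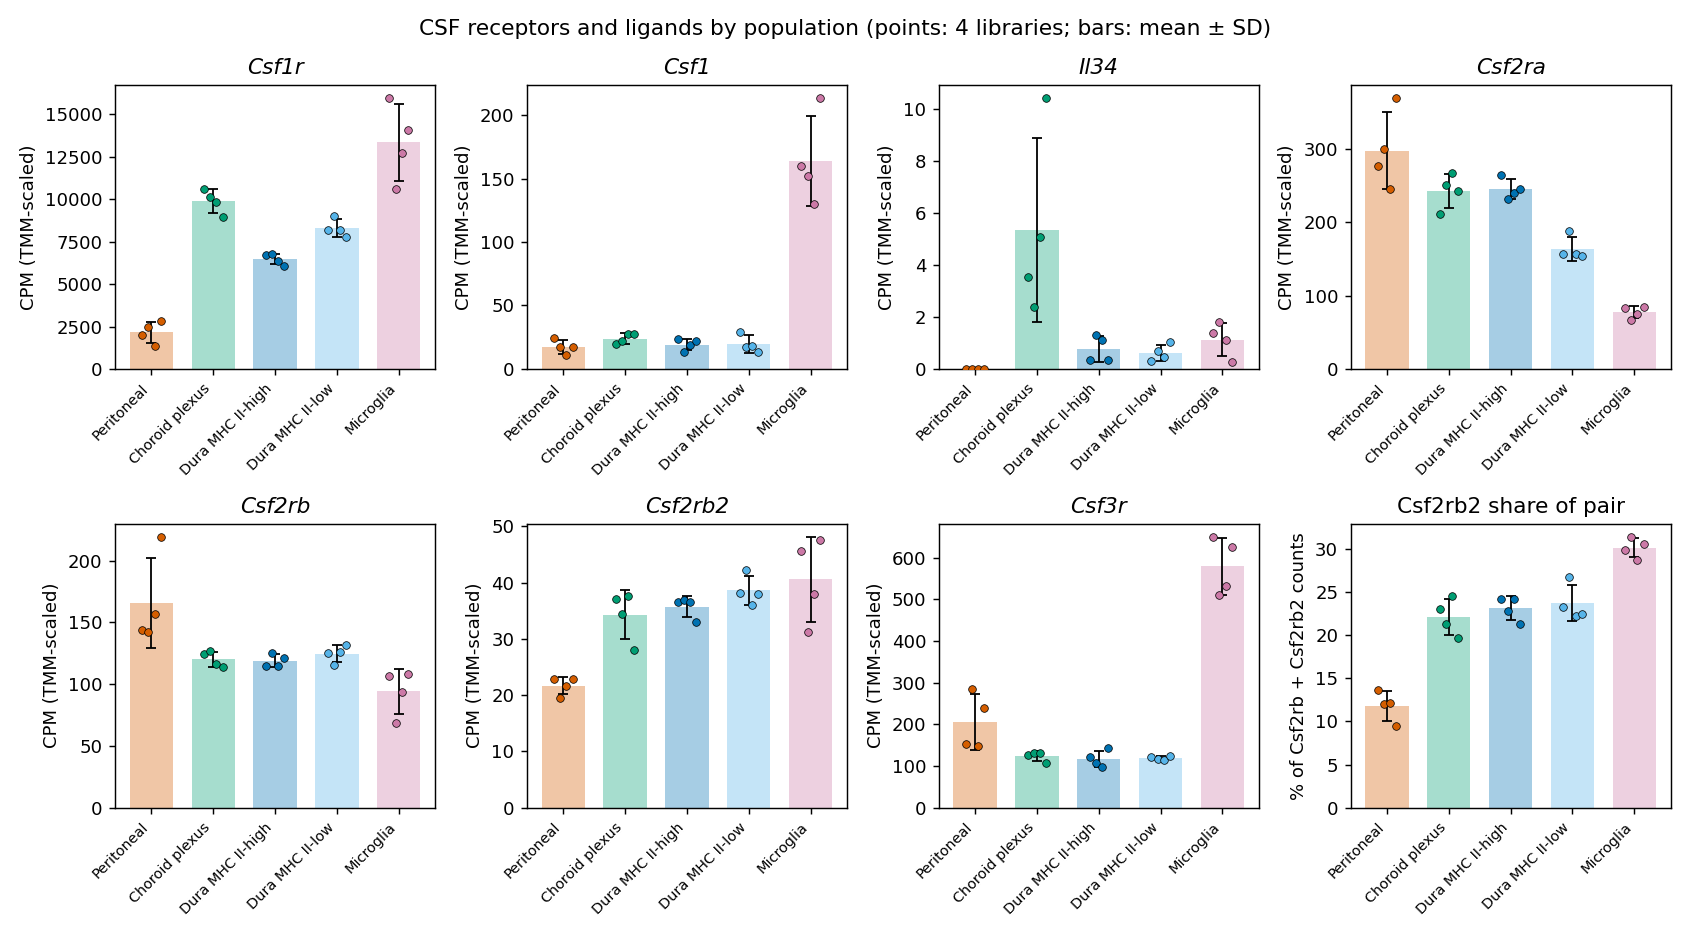
CPM of the 7 genes and the Csf2rb2 share of the pair in percent (y axes) in 5 populations (x axis). Points are libraries, bars the mean and error bars the SD of 4. Csf1 and Csf3r are highest in all 4 microglia libraries, Csf2ra is lowest there, and Il34 is highest in the choroid plexus.

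Per exon length, Csf1r had 373 ± 110 CPM per kb in peritoneal macrophages and 2312 ± 389 CPM per kb in microglia. Next came Csf2ra in peritoneal macrophages, at 104 ± 18.4 CPM per kb, but Csf3r in microglia, at 160.5 ± 19.1 CPM per kb. Csf2ra stood at 27.0 ± 3.03 CPM per kb in microglia. The CSF1R ligands were far lower than their receptor on this scale, with Csf1 at 3.33 ± 1.06 CPM per kb in peritoneal macrophages and 31.0 ± 6.67 CPM per kb in microglia, and Il34 at 2.73 ± 1.81 CPM per kb in choroid plexus.

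**Figure D3:**
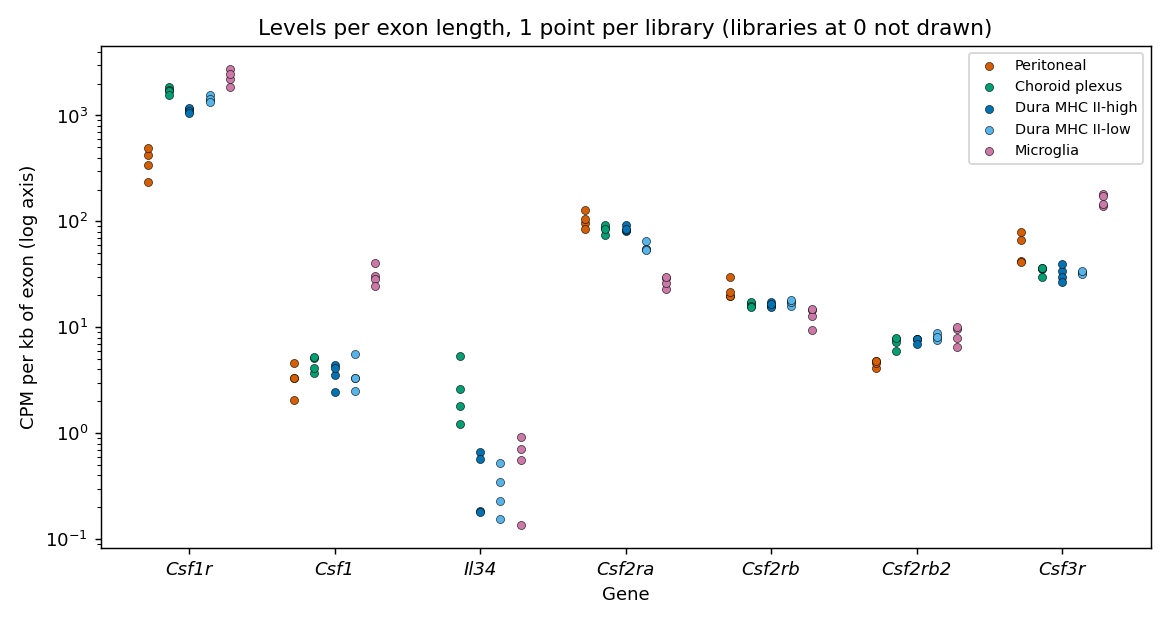
Level per kb of exon of the 7 genes (x axis), in CPM per kb on a log axis (y axis), 1 point per library and 1 colour per population. Csf1r lies above the other genes in every population, and the peritoneal libraries have no Il34 point because they hold 0 counts.

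Counted by comparison, 5 of the 7 genes were called in peritoneal macrophages against microglia, where 44.6% of all 13960 genes tested were called in edgeR. Against choroid plexus, MHC II-high dura and MHC II-low dura, peritoneal macrophages had 2 called genes each, Csf1r and Il34, beside 36.7%, 29.2% and 31.9% of all genes. Choroid plexus had 4 called genes against microglia (19.2% of all genes), MHC II-high dura 4 (27.9%) and MHC II-low dura 3 (26.5%). Choroid plexus had 1, Il34, against MHC II-high dura (9.88%) and against MHC II-low dura (12.8%). In MHC II-high against MHC II-low dura edgeR called 0 of the 7, beside 3.88% of all genes, with 2 at an unadjusted p under 0.05, and DESeq2 also called 0. Libraries of the compared populations did not overlap for all 7 genes in peritoneal macrophages against microglia (59.9% of all genes), for 5 against choroid plexus (58.7%), 5 against MHC II-high dura (44.5%) and 6 against MHC II-low dura (49.1%). They did not overlap for 5 of the 7 in choroid plexus (45%), MHC II-high dura (48.7%) and MHC II-low dura (46.9%) against microglia. The count was 2 in choroid plexus against MHC II-high dura (33.9%) and MHC II-low dura (37.2%), and 2 in MHC II-high against MHC II-low dura (18.2%). With so few genes, these counts were not tested against the shares of all genes.

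**Figure D4:**
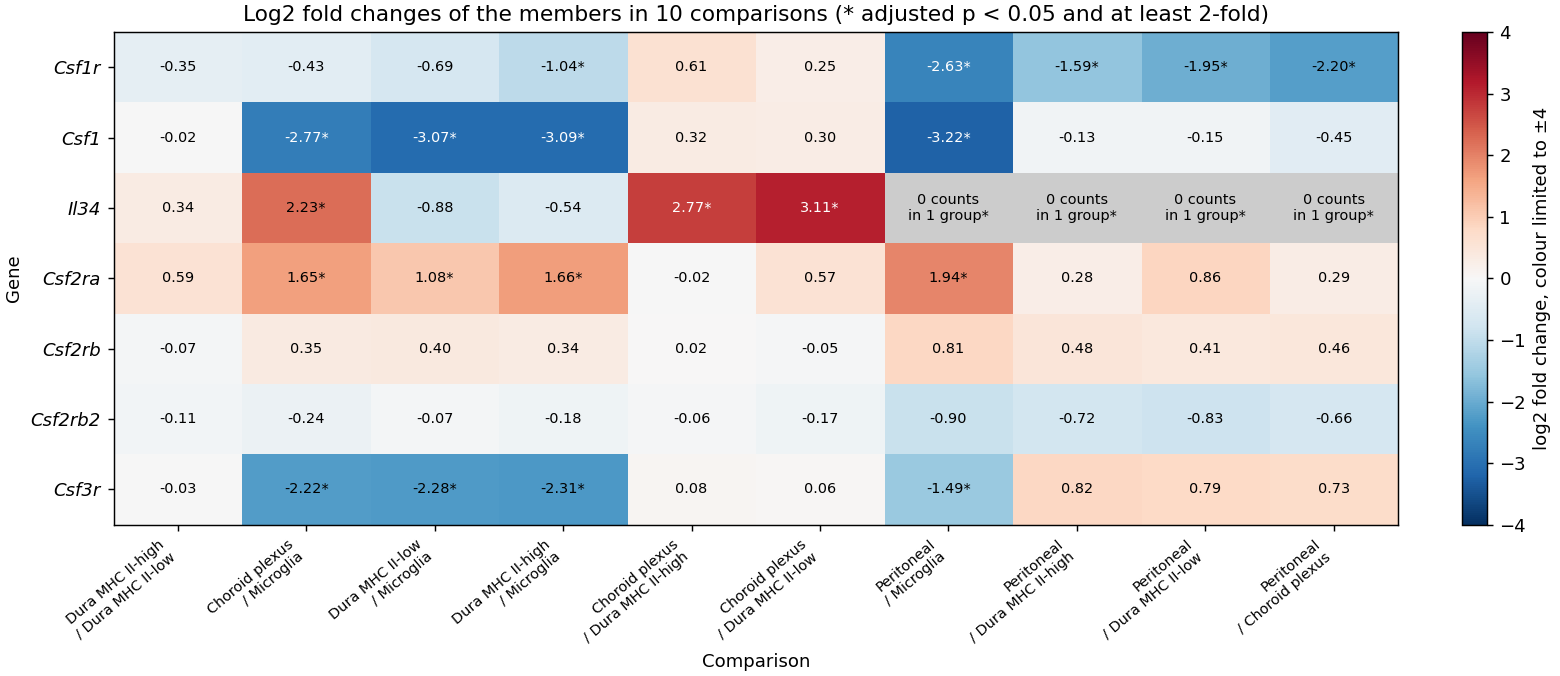
Log2 fold changes of the 7 genes (rows) in 10 comparisons (columns, first over second population), with colour limited to ±4 and a star for called genes. Grey cells are Il34 against the peritoneal libraries, which hold 0 counts. Csf1 and Csf3r are lower, and Csf2ra higher, in every population compared with microglia.

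The promoters of Csf1 and Csf3r, both highest in microglia, and of Csf2ra, lowest there, are shown from 250 bases before to 50 after the gene start (RefSeq, GRCm38.p6). RefSeq promoters matched 4 of the 7 genes, these and Csf2rb2, whose window is not printed. The windows shown lie at chr3:107760420-107760719 (minus), chr4:126024409-126024708 (plus) and chr19:61228369-61228668 (minus). Capitals mark matches, on both strands, to GAGGAA (PU.1-type ETS), TGTGGT (RUNX), TTNNGNAA (C/EBP), TTCNNNGAA (STAT) or TGANTCA (AP-1).
Csf1: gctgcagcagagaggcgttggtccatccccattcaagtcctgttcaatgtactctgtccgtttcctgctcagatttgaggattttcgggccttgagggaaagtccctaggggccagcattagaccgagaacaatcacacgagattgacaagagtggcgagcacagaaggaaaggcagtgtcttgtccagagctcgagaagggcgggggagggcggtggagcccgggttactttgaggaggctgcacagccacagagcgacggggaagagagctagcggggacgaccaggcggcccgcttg
Csf3r: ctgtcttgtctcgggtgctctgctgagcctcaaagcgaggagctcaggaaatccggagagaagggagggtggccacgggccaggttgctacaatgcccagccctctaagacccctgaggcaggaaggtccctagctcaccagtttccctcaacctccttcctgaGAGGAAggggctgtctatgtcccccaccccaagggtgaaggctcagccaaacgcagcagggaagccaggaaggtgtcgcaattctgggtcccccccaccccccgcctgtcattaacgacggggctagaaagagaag
Csf2ra: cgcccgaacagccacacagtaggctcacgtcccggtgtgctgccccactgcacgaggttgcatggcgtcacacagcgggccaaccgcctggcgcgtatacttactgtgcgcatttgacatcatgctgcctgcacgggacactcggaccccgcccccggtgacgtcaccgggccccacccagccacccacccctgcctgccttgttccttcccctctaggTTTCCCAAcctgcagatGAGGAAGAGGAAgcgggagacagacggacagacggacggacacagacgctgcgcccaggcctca

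The Csf1 window held none of the 5 motifs. The Csf3r window held GAGGAA at −86 from the RefSeq start, a place that lies inside the gene span given above for Csf3r. The Csf2ra window held GAGGAA at −14 and −8 and a C/EBP-type match at −31. That of Csf2rb2 held GAGGAA at −167 and 29, C/EBP-type matches at 8 and 29 and a STAT-type match at −15. Of 32544 promoters of this length, 28.1% hold GAGGAA, 16.7% TGTGGT, 40.7% TTNNGNAA, 8.33% TTCNNNGAA and 7.79% TGANTCA. As the Csf1 window held none, no match could be shared between Csf1 and Csf3r.

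Among partner and alternative receptors, Il3ra, the IL-3 receptor alpha chain, was at 22.0 ± 3.02 CPM in peritoneal macrophages, 12.5 ± 2.41 CPM in choroid plexus, 20.5 ± 5.09 CPM in the MHC II-high dura, 19.0 ± 0.366 CPM in MHC II-low dura and 1.90 ± 0.263 CPM in microglia. It rose relative to microglia in all 4, by 3.54 ± 0.19, 2.72 ± 0.19, 3.43 ± 0.19 and 3.32 ± 0.19 on the log2 scale. Of the 4 genes of this list, 2 rose in peritoneal macrophages, 2 in choroid plexus, 1 in MHC II-high dura and 1 in MHC II-low dura, each against microglia. A further gene of the list fell in peritoneal macrophages against microglia when 1 of 6 libraries was left out, among them microglia replicate 3. The list medians were 1.68, 1.43, 0.84 and 0.60, against −0.11, 0.09, 0.02 and 0.02 over all genes tested. Of all genes, 44.6%, 19.2%, 27.9% and 26.5% were called in these comparisons.

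Of 21 CSF1R signalling genes, 3 rose and 5 fell in peritoneal macrophages against microglia (median log2 fold change −0.14). Choroid plexus had 1 higher and 4 lower (−0.12), MHC II-high dura 1 and 3 (0.0032), and MHC II-low dura 4 lower (−0.03). Over all genes tested the medians in these comparisons were −0.11, 0.09, 0.02 and 0.02, and 44.6%, 19.2%, 27.9% and 26.5% were called. Pik3r1, a regulatory subunit of PI3 kinase, was at 40.7–53.0 CPM in peritoneal macrophages and 211–237 CPM in microglia, and fell by 2.24 ± 0.11 on the log2 scale there, by 1.53 ± 0.10 in choroid plexus, by 1.39 ± 0.10 in MHC II-high dura and by 1.31 ± 0.10 in MHC II-low dura. Src, a kinase recruited to CSF1R, was at 0.712 ± 0.226 CPM in peritoneal macrophages and 28.7 ± 2.42 CPM in microglia. The related kinase Fgr was at 161 ± 20.3 CPM in peritoneal macrophages and 10.03 ± 2.54 CPM in microglia. The rise of Fgr in MHC II-high dura against microglia (1.16 ± 0.33, edgeR adjusted p = 0.00628) was short of 2-fold without microglia replicate 5, at 0.99, which left 3 lower genes in that count.

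Of 13 JAK-STAT and feedback genes, 5 fell in peritoneal macrophages against microglia (median −0.78), 7 against MHC II-high dura (−1.29), 6 against MHC II-low dura (−0.65) and 6 against choroid plexus (−0.63). Medians over all genes tested were −0.11, −0.10, −0.11 and −0.13, and 44.6%, 29.2%, 31.9% and 36.7% of them were called. Socs3, a feedback inhibitor of cytokine signalling, was at 143 ± 30.4 CPM in peritoneal macrophages, 715 ± 262 CPM in choroid plexus, 1077 ± 121 CPM in the MHC II-high dura, 1192 ± 235 CPM in MHC II-low dura and 1572 ± 431 CPM in microglia. Bcl2l1, an inhibitor of apoptosis, was at 31.3 ± 4.72 CPM in peritoneal macrophages and 122–245 CPM on average elsewhere. Socs3 and other feedback genes are also immediate responders to stimulation, and the dissociation stress genes given above with Csf1r moved with the same groups, their part not tested.

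Of 8 tested GM-CSF-induced genes, 3 of which also stand in the JAK-STAT list, 3 rose and 4 fell in peritoneal macrophages against microglia (median −1.06). Choroid plexus had 4 higher and 1 lower (0.89), with 4 and 0 without choroid plexus replicate 3, MHC II-high dura 5 higher (1.74) and MHC II-low dura 3 higher (0.34), all against microglia. Over all genes tested the medians in these comparisons were −0.11, 0.09, 0.02 and 0.02, and 44.6%, 19.2%, 27.9% and 26.5% were called. Pparg, a nuclear receptor that GM-CSF induces in alveolar macrophages, was at 2.78 ± 1.04 CPM in peritoneal macrophages, 13.8 ± 2.11 CPM in choroid plexus, 29.4 ± 7.27 CPM in the MHC II-high dura, 16.2 ± 6.91 CPM in MHC II-low dura and 0.199 ± 0.248 CPM in microglia. Its rise over microglia was 6.06 ± 0.52 in choroid plexus, 7.15 ± 0.52 in MHC II-high dura and 6.29 ± 0.52 in MHC II-low dura, and 7.23, 8.32 and 7.46 without microglia replicate 3. Bhlhe40, a transcription factor, was at 415 ± 59.5 CPM in peritoneal macrophages and 11.01–13.9 CPM on average elsewhere. Itgax, encoding CD11c, rose in MHC II-high against MHC II-low dura (36.7 ± 13.1 against 6.14 ± 1.61 CPM, log2 fold change 2.58 ± 0.45, edgeR adjusted p = 0.000859). In that comparison 2 of the 8 list genes rose and 0 fell (median 0.41), where 3.88% of all genes were called (median 0.02). Of 9 dendritic cell markers, Itgax among them, 4 rose and 1 fell there. With Itgax included, the 9 markers summed to 93.4–119 CPM in MHC II-high dura and 57.9–88.7 CPM in MHC II-low dura. Most of the gap between these sums was Itgax itself, and the part of dendritic cells was not tested.

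Of 7 transcription factors known to act on CSF receptor genes, 1 rose and 4 fell in peritoneal macrophages against microglia (median −1.33), and 3, 3 and 4 fell against MHC II-high dura, MHC II-low dura and choroid plexus. Of all genes tested, 44.6% were called against microglia, with a median of −0.11, and 29.2%, 31.9% and 36.7% in the other 3 comparisons. Runx1 was at 23.2 ± 4.94 CPM in peritoneal macrophages and 192–329.9 CPM on average elsewhere, and Irf8 at 148 ± 20.7 CPM in peritoneal macrophages and 483–986 CPM elsewhere. Ets2 rose relative to microglia in choroid plexus (log2 fold change 1.42 ± 0.23, edgeR adjusted p = 4.94e-05), MHC II-high dura (1.45 ± 0.23, 2.66e-05) and MHC II-low dura (1.67 ± 0.23, 6.18e-06). Cebpb rose against microglia in every other population, and was at 1771 ± 437 CPM in peritoneal macrophages and 469 ± 133 CPM in microglia. The log2 fold changes were 1.92 ± 0.27 in peritoneal macrophages, 1.14 ± 0.26 in choroid plexus, 1.16 ± 0.26 in MHC II-high dura and 1.84 ± 0.27 in MHC II-low dura. Without microglia replicate 3 those of choroid plexus and MHC II-high dura were 0.91 and 0.94, short of 2-fold. An opposite-strand gene shares 20.7% of the Cebpb exon length.

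**Figure D5:**
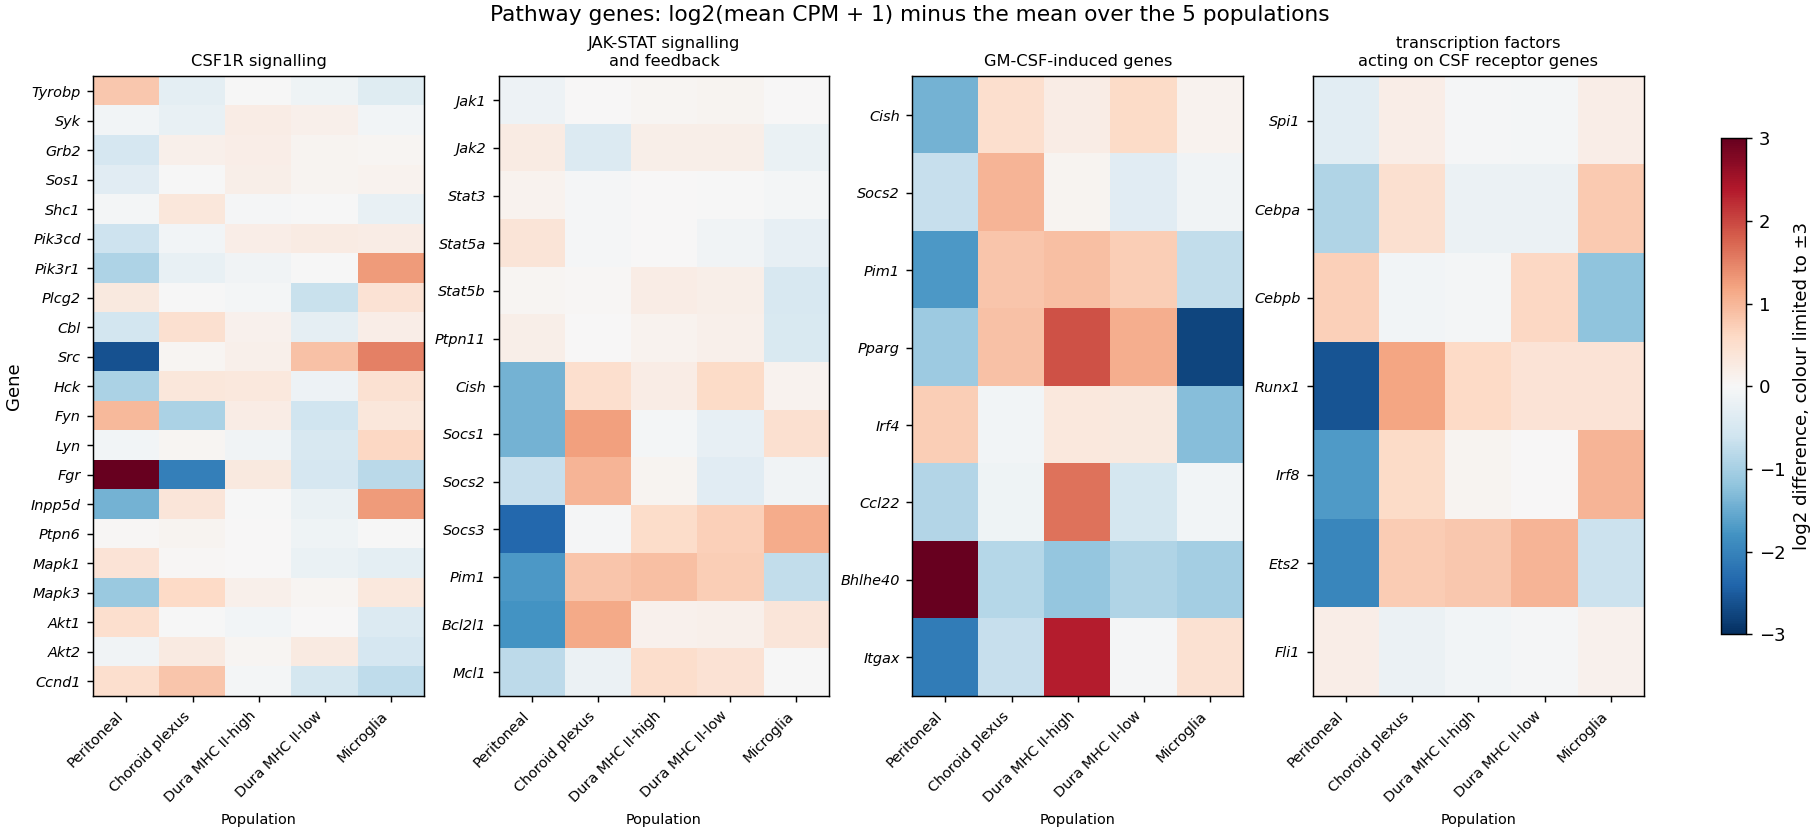
Pathway genes that were tested (rows) in 5 populations (columns), as log2(mean CPM + 1) minus the mean over the populations, with colour limited to ±3. Peritoneal macrophages are low in Socs3, Bcl2l1, Runx1 and Src and high in Bhlhe40 and Fgr, and microglia are low in Pparg.

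Across the 20 libraries, the genes whose log2 CPM followed each member most closely were Cxxc5 (Pearson r = 0.985), Vav1 (0.984) and D8Ertd82e (0.982) for Csf1r, and Myo18b (0.964), Sgk1 (0.96) and Tmem63a (0.957) for Csf1. For Il34 they were Vstm4 (0.966), Itih5 (0.957) and Sept4 (0.951). For Csf2ra they were Vill (0.979), Arpc2 (0.979) and Gnb1 (0.977), for Csf2rb Ampd3 (0.91), Flii (0.893) and Calcrl (0.891), for Csf2rb2 Slc35a5 (0.947), Socs3 (0.939) and Scamp5 (0.929), and for Csf3r Bin2 (0.968), Lpcat3 (0.967) and Slc44a2 (0.967). Between members, r was 0.87 for Csf1 and Csf3r, −0.84 for Csf1 and Csf2ra and 0.88 for Csf1r and Csf2rb2. The 20 points are 4 libraries of each of 5 populations, so these values describe population differences.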

How the data were processed

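The authors deposited raw read counts for 24421 gene symbols in each of 20 libraries. Per the submitters' processing notes, the genome was mm10 and the tools named are SAMtools 0.1.18, TopHat2 2.1.0, Trimmomatic 0.38 and FastQC 0.11.4. Which program counted reads, with what annotation and strand setting, is not given in the sources used here. Reads in no feature (12.04–13.1% in microglia and 5.67–10.5% in the other populations) and ambiguous reads (0.836–1.51%) were left out of library sizes. Whether the higher share in microglia bears on the differences from microglia was not tested.

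A single model of the 20 libraries was fitted with edgeR 4.0.16 in R 4.3.3 (filterByExpr, TMM, robust quasi-likelihood F test, 15 residual degrees of freedom), with Benjamini-Hochberg adjustment over 13960 genes in each of 10 comparisons. The standard error is the log2 fold change over the square root of F. DESeq2 1.42.0, other scalings and filters, each library left out and the replicate numbers as a block were alternatives. The fit was tested on simulated data. Levels per kb use exon lengths of GENCODE M21, which may not be the authors' annotation. The members and lists were chosen with earlier results of these data known. Genes named from a list are its called genes with the largest fold change, at most 4 a comparison, at 10 CPM or more in the higher population, and the genes most like a member are the 3 with the highest correlation. Bounds from 3 counts cover only counting error, as no molecular identifiers are stated. Alveolar macrophages and Kupffer cells, which the series also names, were not analysed here.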

Additional observations from a re-analysis of the deposited data

Results flagged for a closer look

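In 3 of 39 groups of 4 libraries tested, 1 library lay far from the others by Dixon's criterion, which chance meets in about 1 in 20 groups. Replicate 2 of MHC II-low dura had 187.78 CPM of Csf2ra, against 155–156 CPM in the other 3 libraries. Csf2rb2 was at 32.957 CPM in MHC II-high dura replicate 4, against 36.6–36.9 CPM. Csf3r was at 107.67 CPM in choroid plexus replicate 4, against 128–131 CPM.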

How the results depend on the processing

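Over the 7 genes and 10 comparisons, direction and call held in 1381 of 1400 values with 1 library left out and in 531 of 547 under the other settings. Counts limit Il34 most, with 323 in choroid plexus and 70–75 in each dura population and in microglia. With a filter of 10 CPM, 9477 genes were tested in place of 13960, and Il34 was not among them. Of these 9477, genes called numbered 2316 in MHC II-low dura and 2489 in MHC II-high dura against microglia, 714 in choroid plexus against MHC II-high dura and 954 against MHC II-low dura. For peritoneal macrophages they numbered 3888 against microglia, 2429 against MHC II-high dura, 2798 against MHC II-low dura and 2959 against choroid plexus. Called genes among the 6 members tested were then 0 in choroid plexus against either dura population, and 1 in peritoneal macrophages against each of these and against choroid plexus. With only the 2 populations compared in the fit, Il34 did not pass the filter in peritoneal macrophages against microglia or either dura population. It was tested in all other comparisons. In peritoneal macrophages against each dura population, 1 of the 6 genes tested was then called, beside 3433 of 12416 genes against MHC II-high and 3848 of 12372 against MHC II-low dura.

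Several values changed sign. Csf2ra in choroid plexus against MHC II-high dura was 0.0071741 with RLE factors, 0.0073402 with the 10 CPM filter and 0.0071792 in DESeq2, and Csf3r in choroid plexus against MHC II-low dura was −0.012606 with total counts. Csf2ra in MHC II-low dura against microglia was 0.99867 with RLE factors and 0.99886 in DESeq2, short of 2-fold. Summing the pair, which puts the more abundant Csf2rb in place of Csf2rb2, turned the sign of Csf2rb2 to 0.20 in choroid plexus, 0.20 in MHC II-high dura, 0.28 in MHC II-low dura and 0.48 in peritoneal macrophages (edgeR adjusted p = 0.00244), all against microglia. In peritoneal macrophages the sum was 0.28 against MHC II-high dura, 0.20 against MHC II-low dura and 0.28 against choroid plexus, and in choroid plexus −0.00052 against MHC II-high dura.

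Differences in the Csf2rb2 share by medians were 0.628 points in MHC II-high against MHC II-low dura. Against microglia they were −8.09 in choroid plexus, −7.40 in MHC II-low dura, −6.77 in MHC II-high dura and −18.2 in peritoneal macrophages. The peritoneal share differed by −11.4 from MHC II-high dura, −10.8 from MHC II-low dura and −10.1 from choroid plexus, all 7 with an exact permutation adjusted p of 0.0816.

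Same-numbered libraries deviated together little, with correlations of −0.198 to 0.0983. The labels do not say whether they share an origin, and 3 or 4 pairs in a comparison cannot exclude it. With a replicate block, Csf2rb2 in MHC II-low dura against microglia was 0.017734, and Il34 in choroid plexus against microglia was 1.75 (edgeR adjusted p = 0.0714), leaving 3 called genes of the 7 there. Sign flips of these pairs gave share differences of −7.60, −7.35 and −6.75 for choroid plexus, MHC II-low and MHC II-high dura against microglia. For peritoneal macrophages they were −18.3, −11.3, −11.9 and −10.3 against microglia, MHC II-high dura, MHC II-low dura and choroid plexus. The exact sign-flip adjusted p was 0.312 for each of these differences. Sign flips allow no p below 0.125 with 4 pairs or 0.25 with 3 pairs, so this test could not have called any share difference.

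With 1 library left out, MHC II-high against MHC II-low dura ranged over −0.16 to 0.25 for Csf1, −0.012 to 0.70 for Il34, −0.14 to 0.052 for Csf3r and −1.02 to 0.476 points for the share, and the share in MHC II-low dura against microglia over −7.50 to −6.00 points, its exact permutation adjusted p reaching 0.0816 without any 1 microglia library. Choroid plexus against MHC II-high dura ranged over −0.068 to 0.043 for Csf2ra, −0.010 to 0.048 for Csf2rb and −0.11 to 0.031 for Csf2rb2. Csf1 in peritoneal macrophages ranged over −0.33 to 0.049 against MHC II-high and −0.35 to 0.12 against MHC II-low dura. The cause of these changes was not tested.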

Other observations

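Of 9 tested genes for class III receptor tyrosine kinases, the family of CSF1R, and their ligands, 1 rose and 8 fell in peritoneal macrophages against microglia, with a median log2 fold change of −3.01 against −0.11 over all genes tested, of which 44.6% were called. In the same comparison 7 of 7 tested fibroblast markers, of which Pdgfra also stands among the 9 genes, 8 of 8 endothelium markers and 9 of 10 dissociation stress genes fell, and their part was not tested. Endothelium markers summed to 0.814–2.49 CPM in peritoneal libraries and 101–154 CPM in microglia, and fibroblast markers to 0–0.898 CPM and 8.59–127 CPM. Pdgfb, a ligand of PDGF receptors, was at 2.16 ± 0.322 CPM in peritoneal macrophages, 116 ± 8.06 CPM in choroid plexus, 65.4 ± 8.62 CPM in the MHC II-high dura, 39.4 ± 6.80 CPM in MHC II-low dura and 311 ± 21.9 CPM in microglia (SD, n = 4). It fell relative to microglia, with log2 fold changes of −7.16, −1.43, −2.25 and −2.98 in these 4 populations. Pdgfc, another PDGF ligand, was at 46.7 ± 10.2 CPM in MHC II-high dura and 73.4 ± 21.7 CPM in MHC II-low dura, but at 0.520 to 3.80 CPM on average in the other populations.

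Of 21 other cytokine receptor genes, 4 rose and 12 fell in peritoneal macrophages against microglia (median −1.45 against −0.11 over all genes tested), and 8 rose and 3 fell in choroid plexus (0.49 against 0.09). Of all genes, 44.6% and 19.2% were called in these comparisons. Epor, the erythropoietin receptor, was at 1.56 ± 0.697 CPM in peritoneal macrophages, 56.9 ± 4.54 CPM in choroid plexus, 38.0 ± 6.53 CPM in the MHC II-high dura, 87.9 ± 7.53 CPM in MHC II-low dura and 4.64 ± 1.06 CPM in microglia. It fell in MHC II-high against MHC II-low dura by 1.21 ± 0.21 on the log2 scale (edgeR adjusted p = 0.000796). Il7r, the IL-7 receptor alpha chain, averaged 0.245 to 2.14 CPM in the 4 other populations and 25.1 ± 4.73 CPM in microglia. Il27ra, the IL-27 receptor, was at 37.9 ± 4.60 CPM in peritoneal macrophages and averaged 1.06 to 3.72 CPM elsewhere.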
